A study of Mus musculus with 10 samples.

Results

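Sox5, Sox6, Sox9 and Nkx3-2 are the 4 transcription factor genes described here, chosen by name as regulators of the cartilage fate. They are 4 of the 25239 gene symbols in the count table, and all 4 passed the filter on low counts. They were followed in 2 populations of cells that were sorted by flow cytometry as calvarial stem cells from the sutures of the skull, the fibrous joints between its bones, in P7 mice (7 days old). DDR2-plus, named for the collagen receptor DDR2, had 5 libraries, and PSC, left unexplained in the labels, had 5 libraries. Both groups carry the genotype label WT, while the protocol names Ctsk-Cre mice, in which the promoter of the cathepsin K gene drives Cre, with 5 animals. Neither the sort gates nor the animal behind each library is given in the sources.

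SOX9 is the factor without which mesenchymal cells do not become chondrocytes. It binds enhancers of cartilage matrix genes through its HMG box, a DNA-binding domain that recognises short AT-rich motifs. SOX5 and SOX6 are closely related to each other, have no transactivation domain of their own, and bind beside SOX9 to strengthen its action on those enhancers. NKX3-2, also called BAPX1, is a homeodomain repressor that acts with SOX9 in cartilage of the axial skeleton and represses Runx2, the gene of the factor that commits cells to bone. Much of the skull vault forms bone without a cartilage model, although cartilage is present near some sutures and at the skull base.

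Total counts ranged from 49843470 to 62021992 in DDR2-plus and from 43419129 to 58270419 in PSC. Levels are given as CPM, counts scaled to a common library total by TMM factors, which adjust for the RNA composition of each library. Ddr2 mRNA itself averaged 112 ± 3.56 CPM in DDR2-plus libraries, against 152 ± 10.7 CPM in PSC libraries (SD, n = 5 each), which was lower in DDR2-plus (edgeR adjusted p = 0.000165). The 5 chondrocyte markers Col2a1, Acan, Col9a1, Matn1 and Cnmd summed to between 79642 and 111762 CPM in DDR2-plus libraries and between 8974 and 23501 CPM in PSC. The 5 osteoblast markers Bglap, Bglap2, Ibsp, Sp7 and Dmp1 summed to between 3206 and 7062 CPM in DDR2-plus libraries and between 13217 and 17332 CPM in PSC.

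All 4 factors were higher in DDR2-plus, and for each of them the lowest DDR2-plus library stood above the highest PSC library. Across the 15416 genes tested with edgeR's quasi-likelihood test, 20.1% were called higher in DDR2-plus at an adjusted p under 0.05 (39.1% in either direction), 9.94% were called and at least 2-fold higher, and in 15.6% every DDR2-plus library stood above every PSC library (30.1% did not overlap in either direction). The 4 fold changes lay between the percentiles 90.6 and 94.7 of all tested genes, whose median log2 fold change was 0.04. In these bulk samples, fewer cells of a type and less RNA per cell cannot be told apart.

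Sox9 (mm10 chromosome 11, 112782224 to 112787760, plus strand, 1 annotated transcript) was by far the most abundant of the 4. It stood at 986, 1122, 798, 1090.1 and 1068 CPM in DDR2-plus libraries 1 to 5, against 244, 202, 128, 243 and 222 CPM in PSC libraries 1 to 5. The groups were far apart, and library 3 was the lowest in both. Sox9 averaged 1013 ± 130.1 CPM in DDR2-plus libraries, against 208 ± 47.8 CPM in PSC libraries (SD, n = 5 each), which was 4.87-fold higher (log2 fold change 2.28, SE 0.164; edgeR adjusted p = 9.51e-07). PSC libraries were thus not free of Sox9 mRNA, and their mean was 20.5% of the DDR2-plus mean.

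Sox5 (chromosome 6, 143828425 to 144781977, minus strand) spans 953.6 kb and has 14 annotated transcripts, among them the long form known from cartilage and a short form known from testis, which counts per gene symbol do not separate. Its levels were 97.2, 119, 94.6, 110.4 and 109.5 CPM in DDR2-plus, against 38.0, 26.2, 14.5, 38.6 and 17.4 CPM in PSC. DDR2-plus libraries lay close together, with library 3 the lowest and a coefficient of variation of 9.43%, whereas PSC libraries spread over a 2.67-fold range with a coefficient of variation of 41.8%, with PSC 3 and PSC 5 lowest. Sox5 averaged 106 ± 10.01 CPM in DDR2-plus libraries, against 26.9 ± 11.3 CPM in PSC libraries (SD, n = 5 each), 3.93-fold higher (log2 fold change 1.98, SE 0.243; edgeR adjusted p = 4.14e-05).

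Sox6 (chromosome 7, 115470872 to 116038796, minus strand, 16 annotated transcripts over 567.9 kb) had the smallest fold change of the 4. It stood at 87.9, 99.9, 69.8, 93.1 and 101 CPM in DDR2-plus, against 37.4, 31.5, 21.8, 28.2 and 38.0 CPM in PSC. No library of one group reached the other, and library 3 was again the lowest in both. Sox6 averaged 90.3 ± 12.6 CPM in DDR2-plus libraries, against 31.4 ± 6.74 CPM in PSC libraries (SD, n = 5 each), 2.88-fold higher (log2 fold change 1.52, SE 0.152; edgeR adjusted p = 7.66e-06).

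Nkx3-2 (chromosome 5, 41761483 to 41764501, minus strand, 1 annotated transcript) was the least abundant. It had between 526 and 732 counts in DDR2-plus and between 66 and 223 counts in PSC. In CPM this was 10.9, 9.19, 11.7, 10.7 and 11.01 in DDR2-plus, against 2.15, 3.35, 1.53, 5.11 and 5.08 in PSC. DDR2-plus libraries again lay close together, while PSC libraries spread over a 3.34-fold range. Nkx3-2 averaged 10.7 ± 0.915 CPM in DDR2-plus libraries, against 3.44 ± 1.64 CPM in PSC libraries (SD, n = 5 each), 3.11-fold higher (log2 fold change 1.64, SE 0.311; edgeR adjusted p = 0.00113).

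**Figure D1:**
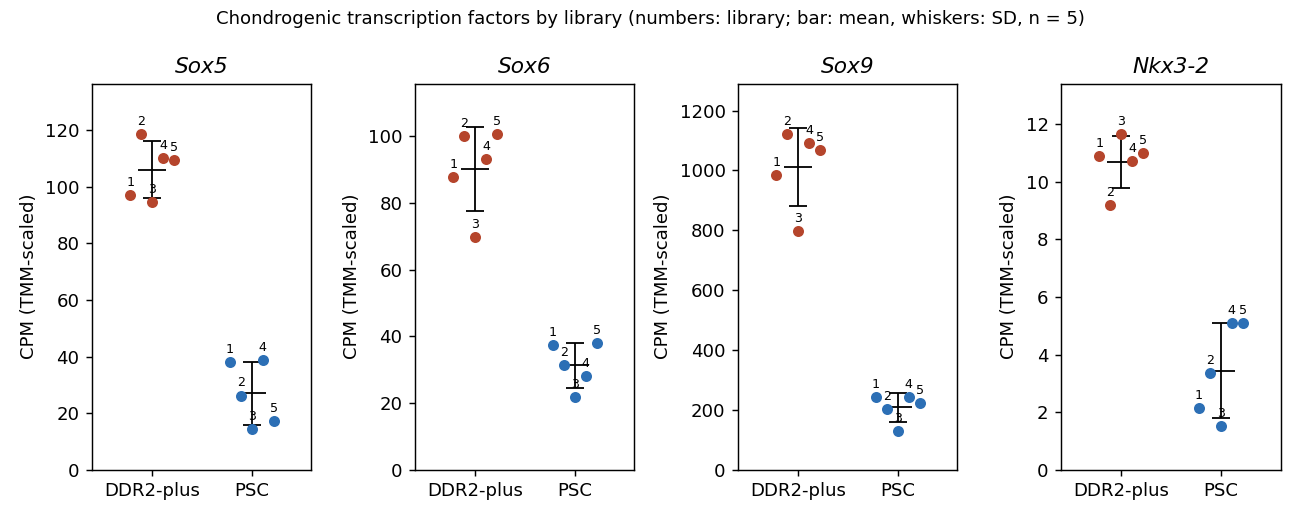
TMM-scaled CPM (linear axes from 0) of Sox5, Sox6, Sox9 and Nkx3-2 in each of the 5 DDR2-plus and 5 PSC libraries; numbers are library numbers, bars are group means and whiskers SD. In every panel all DDR2-plus points lie above all PSC points, and for Sox5, Sox6 and Sox9 library 3 is the lowest of both groups.

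The members were also set against the motif read by the SOX family, to which Nkx3-2 does not belong. Windows before RefSeq start sites (build GRCm38.p6) were found for Sox5, Sox6 and Nkx3-2, 3 of the 4 genes, with 6 start sites for Sox6, and are shown because Sox5 and Sox6 are large genes that were both higher in DDR2-plus. The motifs ACAAT and ACAAAG, core forms bound by HMG boxes, were searched on both strands in the 250 bases before each start, and matches were allowed to overlap. Of 32851 such windows of all genes, 38.8% held at least 1 match and 0.612% held at least 4. The window of Nkx3-2 lies inside an annotated exon and is not printed. The bases below are those outside annotated exons, 5′ to 3′ on the minus strand of each gene, with matches in capitals. They were taken from RefSeq, for the 1 Sox5 start in that table at chr6:143947107-143947356, which lies far inside the annotated span of Sox5 and not at its outer 5′ end, for the outermost Sox6 start at chr7:116038797-116038994, and for a Sox6 start further inside the gene at chr7:115824711-115824960, picked from the 6 after their matches were counted.
Sox5, inner start: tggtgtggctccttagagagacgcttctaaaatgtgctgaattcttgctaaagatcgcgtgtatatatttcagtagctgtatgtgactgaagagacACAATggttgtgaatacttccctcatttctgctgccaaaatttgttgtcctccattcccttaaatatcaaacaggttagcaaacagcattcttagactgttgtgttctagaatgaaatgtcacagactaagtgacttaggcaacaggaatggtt
Sox6, outermost start: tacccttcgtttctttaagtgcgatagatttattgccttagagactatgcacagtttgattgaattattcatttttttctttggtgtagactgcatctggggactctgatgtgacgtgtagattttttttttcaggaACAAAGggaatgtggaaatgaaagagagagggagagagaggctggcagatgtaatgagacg
Sox6, inner start: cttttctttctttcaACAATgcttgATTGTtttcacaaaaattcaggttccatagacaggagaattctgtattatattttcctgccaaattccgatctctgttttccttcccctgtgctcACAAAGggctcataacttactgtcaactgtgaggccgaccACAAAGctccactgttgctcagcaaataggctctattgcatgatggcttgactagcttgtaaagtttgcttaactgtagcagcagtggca
The Sox5 window and the outermost Sox6 window each held 1 match, as many windows do, and the printed inner Sox6 window held 4. Over their full 250 bases, the 6 Sox6 windows held 1, 1, 4, 1, 4 and 3 matches, in order of distance from the outermost start, and the Nkx3-2 window held 1. The share of all windows is for single windows and not for the best of several. A match of these letters is a description of the sequence, and the counts per gene symbol do not tell which start was used.

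Levels of different genes can be compared only per length, and for this CPM was divided by the exonic length of each gene. Among 19 SOX genes, Sox9 ranked first in DDR2-plus at 245 ± 31.5 CPM per kb and second in PSC at 50.3 ± 11.6 CPM per kb (SD, n = 5 each). Sox4, a SOXC factor of many progenitor cells, ranked second in DDR2-plus at 75.7 ± 8.30 CPM per kb and first in PSC at 59.0 ± 8.25 CPM per kb. The ranges of the top pair did not overlap in DDR2-plus, with Sox9 at 193 or more and Sox4 at 85.0 or less, but they did in PSC. Within every PSC library, however, Sox4 stood above Sox9, most narrowly in PSC 4 (59.5 against 58.7 CPM per kb). Sox5, at rank 3 in DDR2-plus and rank 4 in PSC, and Sox6, at rank 5 in both, stood at 14.3 ± 1.35 and 9.64 ± 1.34 CPM per kb in DDR2-plus, against 3.63 ± 1.52 and 3.35 ± 0.720 CPM per kb in PSC, where the ranges of the 2 genes overlapped. Sox8 ranked between them in DDR2-plus, at 12.8 ± 1.53 CPM per kb, and above both in PSC, at 4.81 ± 1.304 CPM per kb, and its range overlapped those of Sox5 and Sox6 in both groups. Within every DDR2-plus library, Sox5 stood above Sox8 and Sox8 above Sox6, whereas the order varied among PSC libraries. Nkx3-2 stood at 6.23 ± 0.532 CPM per kb in DDR2-plus libraries, against 2.004 ± 0.956 CPM per kb in PSC libraries. These means lay below those of Sox5 and Sox6 by far less than in counts. The exons of Nkx3-2 cover 1.718 kb, against 7.425 kb for Sox5 and 9.362 kb for Sox6. In PSC the range of Nkx3-2 overlapped those of Sox5 and Sox6, and in PSC 5 Nkx3-2 was above Sox5 (2.96 against 2.34 CPM per kb). Sox9 made up between 60.1% and 68.5% of the summed level per kb of the 19 SOX genes in DDR2-plus libraries and between 33.9% and 42.9% in PSC libraries. Sox4 made up between 17.8% and 26.4% in DDR2-plus libraries and between 43.48% and 51.45% in PSC libraries. Because 54.6% of the exonic bases of Sox4 are shared with an antisense gene, its level is uncertain. The order of Sox9 and Sox4 and these shares carry that uncertainty.

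**Figure D2:**
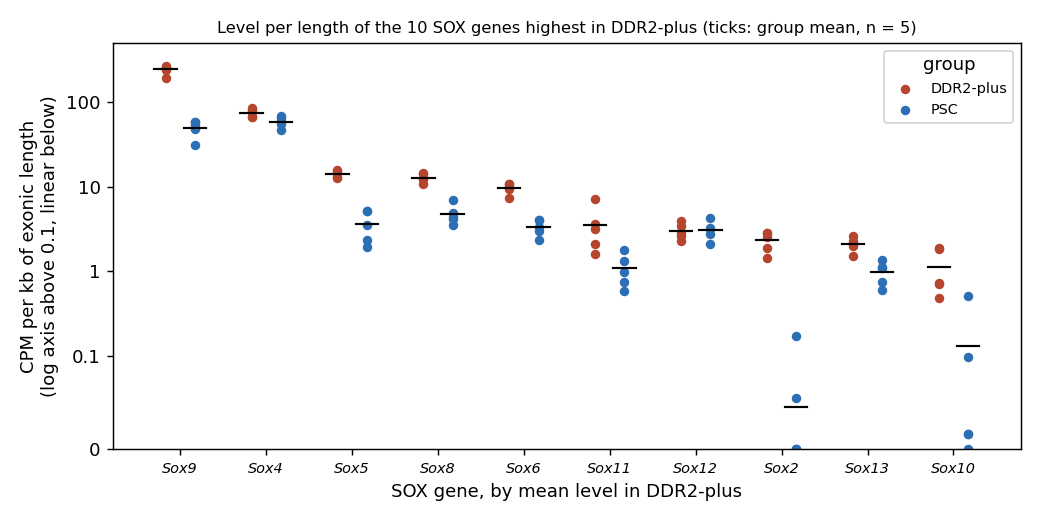
Level per length (CPM per kb of exonic length, log axis above 0.1 and linear below) of the 10 SOX genes with the highest mean in DDR2-plus, with 1 point per library and ticks at the mean of 5 DDR2-plus or 5 PSC libraries. Sox9 lies at 193 to 271 in DDR2-plus, above every other SOX gene, while in PSC its range meets that of Sox4. Within every PSC library Sox4 was above Sox9.

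Of the 16 other SOX genes, 11 were tested. Of these, 6 were called higher in DDR2-plus, 0 lower and 5 did not pass, with a median log2 fold change of 1.10 over the 11. Over all tested genes 20.1% were called higher and 19.0% lower. Sox8, the closest relative of Sox9 together with Sox10, was at 40.0 ± 4.76 CPM in DDR2-plus libraries, against 15.0 ± 4.06 CPM in PSC libraries, 2.67-fold higher (edgeR adjusted p = 2.89e-05). Sox13, the other member of the SOXD group of Sox5 and Sox6, was at 7.90 ± 1.504 CPM in DDR2-plus libraries, against 3.69 ± 1.14 CPM in PSC libraries, 2.14-fold higher (edgeR adjusted p = 0.00492). Sox11 was 3.25-fold higher with overlapping groups (edgeR adjusted p = 0.00422). Sox4 was 1.28-fold higher with overlapping groups (edgeR adjusted p = 0.0168), and without DDR2-plus 2 it did not pass (edgeR adjusted p = 0.0503). Sox12 stood at 13.4 ± 2.97 CPM in DDR2-plus libraries, against 13.9 ± 3.49 CPM in PSC libraries and did not pass, and the sign of its small log2 fold change of -0.045 turned with library size alone (0.23). Of the exonic bases of Sox4, 54.6%, and 10.6% of those of Sox8 are shared with an antisense gene, and reads of the strands cannot be told apart here.

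Ratios of counts within a library do not depend on the scaling between libraries, and 10 of them were compared, with exact two-sided permutation tests adjusted over the 10. The 4 factors shifted against Runx2 in the same direction. Runx2 stood at 116 ± 6.93 CPM in DDR2-plus libraries, against 121 ± 12.1 CPM in PSC libraries and was not called (log2 fold change -0.05, edgeR adjusted p = 0.627), although scaling by library size alone put it at 0.21 and called it higher (edgeR adjusted p = 0.0394). For each Sox9 count over each Runx2 count, the ratio was 9.35, 9.01, 6.73, 9.33 and 9.27 in DDR2-plus, against 1.76, 1.68, 1.202, 2.13 and 1.80 in PSC. Sox9 counts therefore exceeded Runx2 counts in all 10 libraries. The log2 ratio to Runx2 was higher in DDR2-plus by 2.36 for Sox9, 2.13 for Sox5, 1.83 for Nkx3-2 and 1.59 for Sox6 (exact permutation test, n = 5 each, p = 0.00794 for each, the smallest that 5 against 5 can give, adjusted p = 0.0159). Runx2 was near equal in the groups and each factor already did not overlap in CPM, so these 4 tests restate the fold changes. Their ties at the smallest p also lower the adjusted p given next for Sox6 to Sox9.

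Among the factors themselves, the proportion of Sox6 to Sox9 differed between the populations. The ratio of Sox6 to Sox9 counts was 0.0891, 0.0891, 0.0874, 0.0854 and 0.0942 in DDR2-plus, against 0.153, 0.156, 0.170, 0.116 and 0.171 in PSC. All DDR2-plus values lay below all PSC values, and they were nearly constant. The log2 ratio was -3.49 ± 0.0522 in DDR2-plus and -2.72 ± 0.228 in PSC (SD, n = 5 each), a difference of -0.77 (exact permutation test, two-sided, p = 0.00794, adjusted p = 0.0159). Relative to Sox9, Sox6 mRNA was thus lower in DDR2-plus although both were higher there in CPM.

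For the other 5 pairs of factors the groups overlapped and the difference did not pass. The log2 ratio of Sox5 to Sox6 was 0.24 ± 0.125 in DDR2-plus and -0.30 ± 0.603 in PSC, a difference of 0.54 (exact permutation test, n = 5 each, adjusted p = 0.145). Without PSC 4, the PSC library with the highest ratio, this difference was 0.73 and passed (exact permutation test, adjusted p = 0.0132). The log2 ratio of Sox5 to Sox9 was -3.25 ± 0.103 in DDR2-plus and -3.02 ± 0.420 in PSC, a difference of -0.23 (exact permutation test, n = 5 each, adjusted p = 0.337). Without PSC 5, the PSC library with the lowest ratio, this difference was -0.39 and passed (exact permutation test, adjusted p = 0.0265). The pairs with Nkx3-2 differed by between -0.24 and 0.53 on the log2 scale (exact permutation tests, n = 5 each, adjusted p between 0.159 and 0.516).

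**Figure D3:**
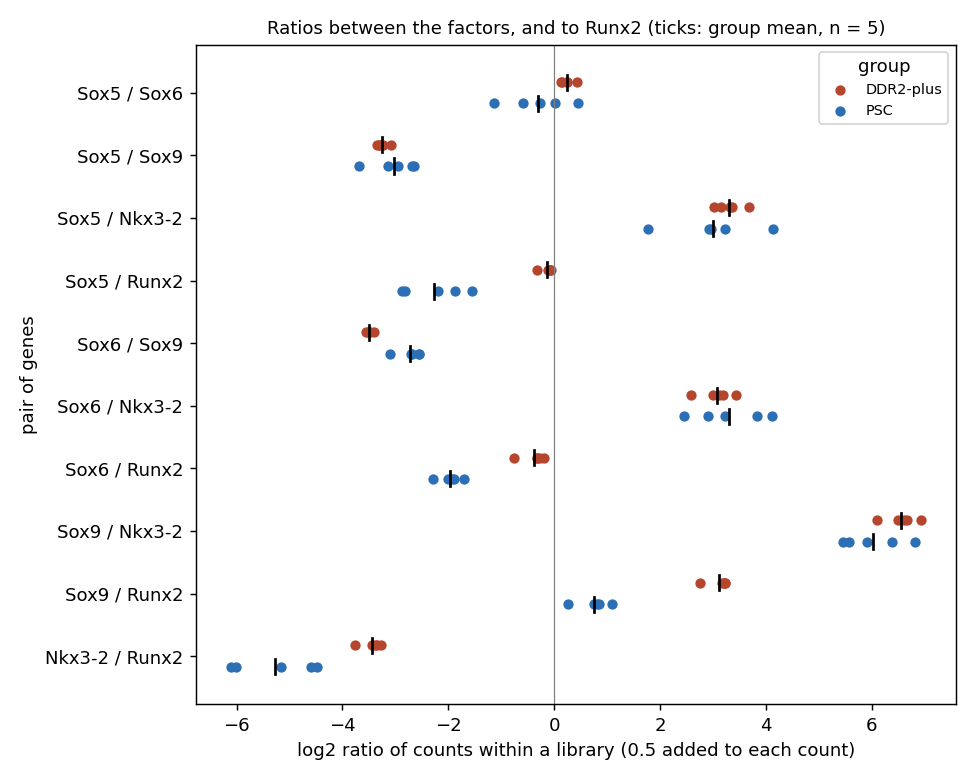
Log2 ratio of counts (0.5 added) for 10 pairs of genes within each library, DDR2-plus above PSC in each row, with ticks at the means of 5 libraries. The 4 rows with Runx2 and the row of Sox6 over Sox9 show groups that do not overlap, while the other 5 rows overlap and PSC spreads more widely.

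The levels of the factors were next set beside those of the chondrocyte markers, library by library. All 5 markers are also in the list of cartilage targets of the SOX factors described further on. Col2a1 made up most of their sum, with 78095 of 96699 CPM in DDR2-plus 1 and 7414 of 8974 CPM in PSC 3. The sum is therefore no measure of chondrocytes that is separate from targets of these factors. For every 1000 CPM of the 5 chondrocyte markers, Sox9 stood at 10.2, 10.3, 10.02, 9.75 and 10.4 CPM in DDR2-plus, against 13.2, 13.3, 14.3, 10.3 and 14.1 CPM in PSC. This proportion was close to constant within DDR2-plus, and PSC 4, which had the highest marker level of its group, fell among the DDR2-plus values. Per 1000 marker CPM, Sox6 averaged 0.903 ± 0.0532 CPM in DDR2-plus libraries, against 2.03 ± 0.499 CPM in PSC libraries, and Sox5 averaged 1.07 ± 0.0799 CPM in DDR2-plus libraries, against 1.63 ± 0.343 CPM in PSC libraries (SD, n = 5 each). Sox6 values of the groups did not overlap, whereas Sox5 values did, since PSC 5 was at 1.10. Nkx3-2 averaged 0.109 ± 0.0234 CPM in DDR2-plus libraries, against 0.209 ± 0.0759 CPM in PSC libraries per 1000 marker CPM, with overlap. These proportions were chosen after the values were seen and were not tested.

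**Figure D4:**
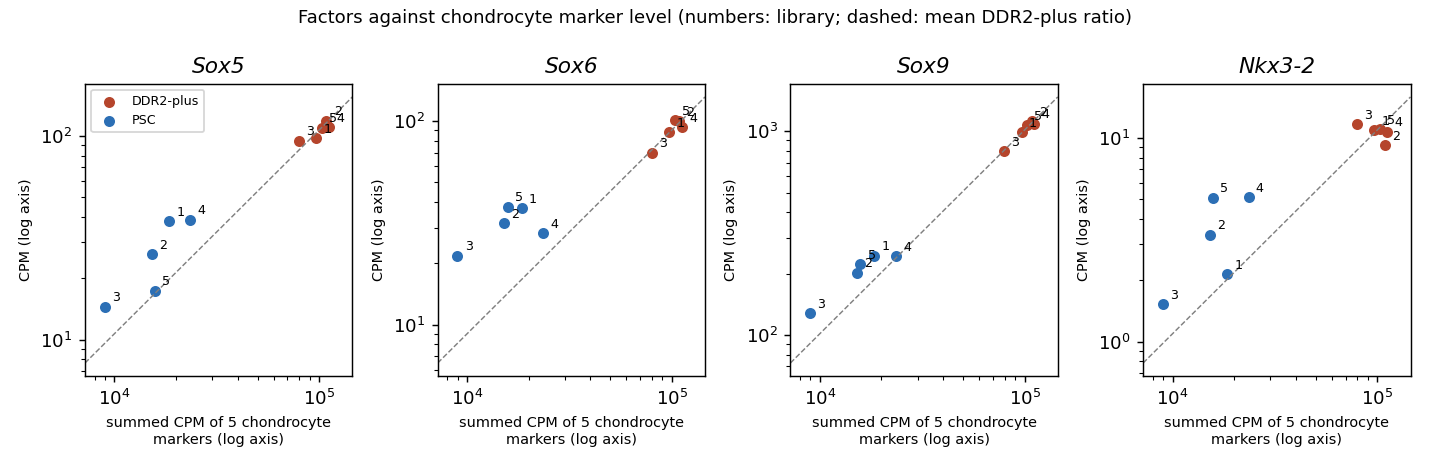
CPM of each factor against the summed CPM of 5 chondrocyte markers (both on log axes) in the 5 DDR2-plus and 5 PSC libraries, with library numbers. The dashed line marks the mean DDR2-plus proportion. PSC points of Sox9 lie on or just above it (10.3 to 14.3 against 9.75 to 10.4 CPM per 1000 marker CPM), and those of Sox6 lie further above.

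Cartilage genes described as targets of SOX9 or of the trio moved with the factors. The list was chosen with earlier results of these data known. All 18 of its genes were called higher in DDR2-plus, with a median log2 fold change of 2.37. Among all tested genes 20.1% were called higher, and the median was 0.04. Col2a1, the type II collagen gene whose intron enhancer is the classical SOX9 site, stood at 81477 ± 10384 CPM in DDR2-plus libraries, against 13386 ± 4268 CPM in PSC libraries, 6.09-fold higher (edgeR adjusted p = 1.38e-06). Col9a3, a chain of the collagen that coats type II fibrils, was 5.48-fold higher, while the fibril-forming chains Col11a2 and Col11a1 were 2.82-fold and 2.70-fold higher, below Sox9. Like Sox9, Col2a1 was lowest in library 3 of both groups, with 65192 CPM in DDR2-plus 3, against 7414 CPM in PSC 3.

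Of 16 genes of cofactors and modifiers of SOX9, 4 were called higher, 3 lower and 9 did not pass, with a median log2 fold change of 0.03. These counts are near the shares over all tested genes, 20.1% higher and 19.0% lower, and so say little of the list. Wwp2, a ubiquitin ligase gene that SOX9 activates and that hosts miR-140, was at 451 ± 62.9 CPM in DDR2-plus libraries, against 171 ± 25.6 CPM in PSC libraries, 2.63-fold higher (edgeR adjusted p = 2.48e-06). Trps1, a GATA-type repressor of growth plate cartilage, was 1.77-fold higher (edgeR adjusted p = 0.000291). Arid5a was 2.50-fold higher (edgeR adjusted p = 0.000276), whereas its relative Arid5b, which is known to act with SOX9 on cartilage genes, was 1.70-fold lower (edgeR adjusted p = 0.00438). Prkaca, the catalytic subunit of the kinase that phosphorylates SOX9, was 1.33-fold lower (edgeR adjusted p = 0.0044), and with library size alone as the scaling it did not pass (edgeR adjusted p = 0.265). Ctnnb1, the gene of beta-catenin, which opposes SOX9, stood at 671 ± 41.9 CPM in DDR2-plus libraries, against 696 ± 57.5 CPM in PSC libraries and did not pass. With library size alone it was called higher, at a log2 fold change of 0.22 (edgeR adjusted p = 0.029), a scaling that moved the median of all tested genes to 0.31. Of the exonic bases of Ctnnb1, 20.9% are shared with an antisense gene.

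Around Nkx3-2, factors of the sclerotome and of joints split. Of 9 tested, 4 were higher, 3 lower and 2 did not pass, with a median log2 fold change of -0.36. Over all tested genes 20.1% were higher and 19.0% lower, and these small counts were not tested against those shares. Foxc2, a forkhead factor of the sclerotome, was 2.18-fold higher (edgeR adjusted p = 0.000624) and Gdf5, the joint ligand, 2.35-fold higher (edgeR adjusted p = 0.00472), although 40.3% of the exonic bases of Gdf5 are shared with an antisense gene. Foxc1 was 1.57-fold higher (edgeR adjusted p = 0.0253), and that call was lost on leaving out any one of 6 libraries, DDR2-plus 1, 2 or 5 or PSC 1, 2 or 3 (edgeR adjusted p between 0.0537 and 0.0648). The somite factors Meox1 and Meox2 were 11.5-fold and 10.9-fold lower in DDR2-plus (edgeR adjusted p of 6.22e-07 and 1.06e-05). Pax1, which activates Nkx3-2 in the sclerotome, stood at 10.98 ± 1.74 CPM in DDR2-plus libraries, against 14.1 ± 5.25 CPM in PSC libraries and did not pass.

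Factors and markers of hypertrophic cartilage, the stage that SOX9 holds back, also split. Of 12, 6 were higher, 3 lower and 3 did not pass, with a median log2 fold change of 0.30. The shares over all tested genes were 20.1% higher and 19.0% lower. Col10a1, the collagen of hypertrophic chondrocytes, was 7.74-fold higher and Ihh 8.03-fold higher (edgeR adjusted p of 1.99e-06 and 1.09e-06). Foxa3 and Foxa2, forkhead factors of hypertrophy, were 6.33-fold and 10.3-fold higher. Foxa2 had only 4 to 72 counts in PSC libraries (0.0754 to 1.62 CPM), so the size of its fold change rests on few counts. Sp7, a bone factor downstream of RUNX2, was 1.77-fold lower (edgeR adjusted p = 0.000428) and Mef2c, which drives hypertrophy with HDAC4 as its repressor, 1.36-fold lower (edgeR adjusted p = 0.0166). With library size alone Mef2c did not pass (edgeR adjusted p = 0.279). Hedgehog and BMP signalling induce Nkx3-2 and Sox9 in the embryo. Of the 14 tested genes of that signalling, 6 were higher, 2 lower and 6 did not pass. Their median was 0.16, and the same shares over all tested genes stand beside these counts. Bmp2 was 2.22-fold and Bmp7 1.67-fold higher, and Bmp4 2.19-fold lower (edgeR adjusted p of 0.00045 or less). Smad1, the other of the 2 lower genes, lost its call without any one of 7 libraries, DDR2-plus 1, 3, 4 or 5 or PSC 2, 3 or 5, when 1 lower gene was left.

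**Figure D5:**
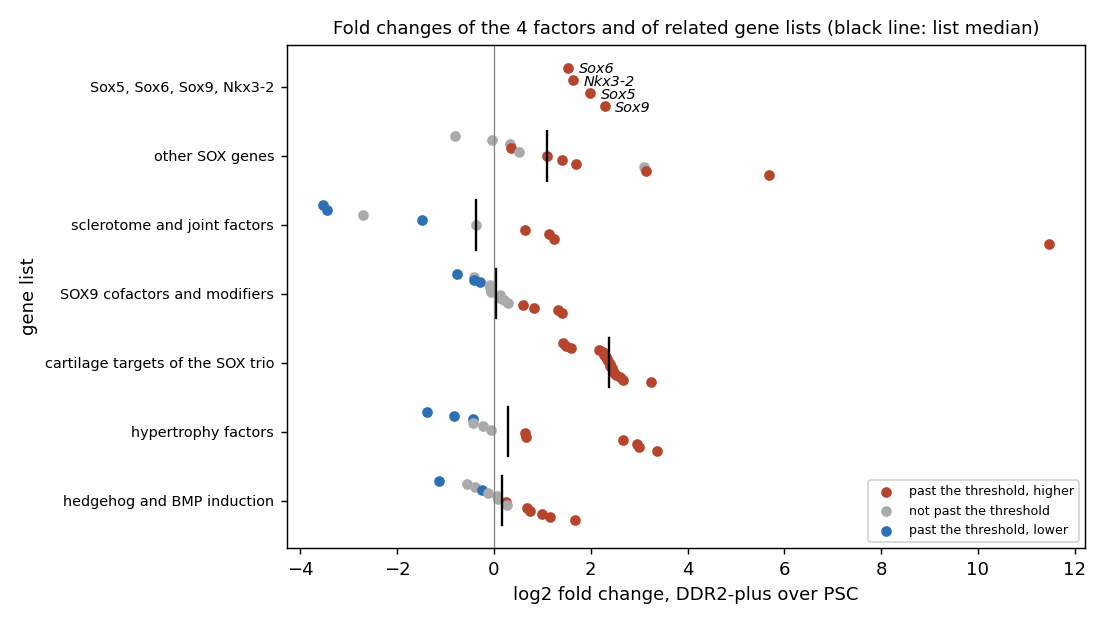
Log2 fold change, DDR2-plus over PSC, of Sox5, Sox6, Sox9 and Nkx3-2 and of the tested genes of 6 lists, 1 point per gene, coloured by call, with a black line at each list median. The 18 cartilage targets all lie to the right of 0 around a median of 2.37, while the other lists straddle 0; the point beyond 11 is Uncx, which had 0 counts in PSC, so its fitted position depends on the prior count.

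The genes with the pattern most like each factor over the 10 libraries were found by the root mean square difference of log2 CPM, each gene centred on its own mean, among 12971 candidates. The step between the groups was kept, so genes with a like fold change come out near each other. Those nearest to Sox9 were 4.57-fold to 5.19-fold higher in DDR2-plus, beside 4.87-fold for Sox9. Nearest to Sox9 were Pde4b, a cAMP phosphodiesterase, at 0.0857, the cartilage proteoglycan gene Snorc at 0.102, the co-chaperone gene Dnajb1 at 0.116, Matn3 at 0.123 and Efcab1 at 0.126, where the median candidate stood at 1.24. Snorc and Matn3 are both in the list of cartilage targets, whose genes were all called higher, so their nearness is no separate support. Nearest to Sox5 were Sorbs2, Ifitm10, Eps8l2, Kcna6 and Susd5 at 0.190 to 0.214. Nearest to Sox6 were Nr4a3, Elovl6, B3gnt2, Atf3 and Myc at 0.144 to 0.157, of which Nr4a3, Atf3 and Myc are early response genes. Nearest to Nkx3-2 was Susd4 at 0.165, followed by Tspan13, Clu, Tifa and Hbegf at 0.265 to 0.309. Among the factors the closest pair was Sox5 and Sox9 at 0.296 and the farthest Sox5 and Nkx3-2 at 0.577. Of their exonic bases, Eps8l2 shares 41.1%, Kcna6 40.4% and B3gnt2 73.6% with other genes, so their counts may be ambiguous.

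SOX genes also serve other tissues, with Sox9 in astrocytes and hair follicles, Sox6 in muscle and red cell precursors and Sox5 in melanocytes and neurons, so markers of those cells were set beside the factors. For comparison, 20.1% of all tested genes were called higher in DDR2-plus. Of 7 neuron markers, 6 were higher in DDR2-plus and 1 did not pass. The 7 neuron markers summed to between 38.3 and 128 CPM in DDR2-plus libraries and between 6.78 and 13.8 CPM in PSC. All 5 astrocyte markers were higher, summing to between 52.1 and 304 CPM in DDR2-plus libraries and between 19.5 and 28.6 CPM in PSC. Of 8 Schwann and oligodendrocyte lineage markers, 5 were higher, 1 did not pass and 2 were not tested, with sums of 163 to 542 CPM in DDR2-plus libraries and 6.80 to 39.5 CPM in PSC. The 6 pineal and photoreceptor markers summed to between 136 and 222 CPM in DDR2-plus libraries and between 4.95 and 7.52 CPM in PSC, with 5 higher and Aanat at 0 in PSC.

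Muscle markers summed to between 8.72 and 32.9 CPM in DDR2-plus libraries and between 5.86 and 19.7 CPM in PSC, with 1 of 5 higher. Erythroid markers summed to between 5.86 and 19.4 CPM in DDR2-plus libraries and between 0.349 and 9.32 CPM in PSC, with 1 of 5 higher and Klf1 at 0 in PSC. Epithelial and hair follicle markers reached 50.2 CPM in DDR2-plus libraries, against 8.67 CPM in PSC libraries, with 3 of 5 higher and Krt5 and Krt14 too low to be tested. Melanocyte markers stayed at or below 13.2 CPM in DDR2-plus libraries, against 11.2 CPM in PSC libraries, with 1 of 4 higher. Leukocyte and endothelial markers stayed at or below 28.3 CPM in DDR2-plus libraries, against 22.1 CPM in PSC libraries, with 1 of 4 and 2 of 3 higher and Cdh5 lower. In DDR2-plus libraries 1 to 5, the astrocyte markers summed to 290, 70.5, 98.1, 304 and 52.1 CPM, beside 986, 1122, 798, 1090.1 and 1068 CPM of Sox9. The part of these other cells in the levels of the 4 factors was not tested.

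Sox5, Sox6, Sox9 and Col2a1 were lowest in DDR2-plus 3. That library had the lowest chondrocyte marker sum of its group, 79642 CPM, most of it Col2a1 itself. It also had the highest osteoblast marker sum, 7062 CPM. Nkx3-2 was instead at its highest there, at 11.7 CPM. In PSC 3 all 4 factors were at their lowest, together with the chondrocyte marker sum at 8974 CPM. Leaving out each library in turn kept every factor called, with log2 fold changes between 2.15 and 2.35 for Sox9, 1.82 and 2.14 for Sox5, 1.42 and 1.602 for Sox6 and 1.45 and 1.82 for Nkx3-2. Tendon markers went the other way, with Scx, Tnmd and Mkx summing to between 79.0 and 142 CPM in DDR2-plus libraries and between 1530 and 1777 CPM in PSC.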

How the data were processed

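The authors deposited whole-number counts per gene symbol, 1 column per library, per the file headers. Per the submitters' processing notes, reads were placed on mm10 and DESeq was used, while aligner, counter and annotation were not given in the sources used here. Per the labels' protocols, cDNA came from 1 ng of RNA by template switching, and a transposase kit (Nextera XT), without strand information, made the libraries. Amplified reads are not independent molecules.

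Counts of 10 libraries went into edgeR 4.0.16 (R 4.3.3), quasi-likelihood test, TMM factors, filterByExpr, no covariates and Benjamini-Hochberg adjustment over all tested genes at 0.05. SEs came from fold change and F statistic. limma 3.58.1 (voom) and DESeq2 1.42.0 were alternatives. Coordinates and exonic lengths (union of basic transcripts) are from GENCODE M21 (GRCm38, the build mm10). Log2 CPM for the likeness of patterns used a prior count of 2. Ratios used raw counts plus 0.5. Members, lists and tests were chosen with earlier results of these data known. The text names the 4 factors, per list up to 4 called and 2 uncalled genes of highest CPM, the 5 genes of most similar pattern per factor, and the markers. Arid5a, Arid5b, Sp7, Foxa2, Foxa3, Meox1, Bmp4, Uncx, Sox2, Sox10 and Ddr2 were named after their values were seen. Results of some genes of the lists are not reported here. On simulated counts for this comparison (15110 genes), the fit recovered 31.3% of genes at a 1.5-fold change, 55.2% at 2-fold and 75.8% at 4-fold, and 6.9% of calls were unchanged genes. Only 67, 67 and 66 genes were changed at these folds, while 39.1% of tested genes were called in the data. The rates may therefore not carry over to the data. No pair of libraries of a group agreed within sampling noise (lowest chi-square per degree of freedom 40.9). P-values measure the spread between these libraries, whose link to animals the labels do not give.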

Additional observations from a re-analysis of the deposited data

Results flagged for a closer look

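Of 134 groups of 5 values checked, 11 had a library far from the other 4, where chance flags about 5% of groups. For the ratios, the log2 ratio to Runx2 was lowest in DDR2-plus 3 for Sox5 (-0.33, the other 4 between -0.12 and -0.068), for Sox6 (-0.77, the others between -0.33 and -0.20) and for Sox9 (2.75, the others between 3.17 and 3.23). The log2 ratio of Sox6 to Sox9 was lowest in PSC 4, at -3.11, with the others between -2.71 and -2.55. DDR2-plus 3 was also low for Ifitm10 (47.1 CPM, the others at 58.9 to 61.0) and Susd5 (862 CPM, the others at 1134 to 1216), both near Sox5 in pattern. PSC 3 was low for B3gnt2 (18.6 CPM, the others at 25.4 to 27.3) and Atf3 (118 CPM, the others at 199 to 216), both near Sox6 in pattern. Ihh reached 63.9 CPM in PSC 1 and 27.2 to 32.8 CPM in the other PSC libraries. Sox7 reached 3.81 CPM in PSC 5 and at most 0.45 CPM in the others, and Smad1 reached 96.0 CPM in DDR2-plus 2 and 78.4 to 82.4 CPM in the others.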

How the results depend on the processing

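Each of the 4 factors kept its direction and its call in all 18 alternatives, 72 of 72 in all. Scaling by library size alone put the median over all genes at 0.31 (log2), against 0.04 with TMM, 5421 genes were higher and 1538 lower in place of 3096 and 2926, 9 SOX9 cofactor genes were higher and 1 lower, and 1 hypertrophy gene and 1 hedgehog or BMP gene were lower. Under that scaling the log2 fold change turned positive for Ctnnb1 (0.22), Dlx5 (0.054), Runx2 (0.21, edgeR adjusted p = 0.0394), Smad1 (0.019) and Sox12 (0.23). Leaving out single libraries gave 1 to 3 lower hedgehog and BMP genes, log2 fold changes of -0.0038 to 0.10 for Bmpr1a, -0.097 to 0.00073 for Runx2 and -0.16 to 0.094 for Sox12, which include the reversals, and differences in log2 ratio of -0.0047 to 0.59 for Sox5 to Nkx3-2, 0.33 to 0.73 for Sox5 to Sox6 and -0.39 to -0.14 for Sox5 to Sox9. The cause was not tested.

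The titles of both groups carry the same library numbers, and the protocol names 5 animals. Whether same-numbered libraries come from the same animal is not given in the labels. Same-numbered libraries correlated at 0.0289 to 0.0535 after removing group means. Each of the 5 DDR2-plus libraries correlated best with the PSC library of its own number. Pairs by animal are therefore possible, and the main tests did not use them. With the replicate block 3054 genes were higher and 2688 lower, and every factor kept its call. In paired sign-flip tests of the ratios, which cannot go below p = 0.0625, the differences to Runx2 (2.36 for Sox9, 2.13 for Sox5, 1.83 for Nkx3-2, 1.59 for Sox6) and of Sox6 to Sox9 (-0.77) had an exact adjusted p of 0.125. Of 53 other named genes, 40 kept their call and direction in every alternative. Nkx3-2 had only 66 to 223 counts in PSC, where its coefficient of variation between libraries was 47.7%.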

Other observations

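Uncx, a homeobox gene of the posterior sclerotome, had 2009 counts over the DDR2-plus libraries and 0 over the PSC libraries. Against 3 counts over the PSC group this would be 504-fold. Amplified reads are not independent molecules, so that value is no firm lower bound. Uncx was uneven among DDR2-plus libraries, at 12.5, 1.08, 4.99, 6.44 and 8.69 CPM. In the same libraries the neuron markers summed to 125, 38.3, 61.9, 71.8 and 128 CPM. Which cells carried the Uncx counts was not tested. Sox2, a factor of neural and epithelial progenitors, stood at 4.76 ± 1.29 CPM in DDR2-plus libraries, against 0.0923 ± 0.151 CPM in PSC libraries (SD, n = 5 each), and passed with an edgeR adjusted p = 0.000586. Sox10, a factor of the neural crest and glia, stood between 1.34 and 5.24 CPM in DDR2-plus and reached 1.42 CPM in PSC 5, where the other PSC libraries had at most 0.275 CPM (edgeR adjusted p = 0.035).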
